A study of Bos grunniens with 12 samples.

Results

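The genes described here are the families that build the moving part of the sperm tail. They were chosen by symbol from the deposited gene table of yak testis as every row whose symbol starts with CFAP, DNAH, DNAI, RSPH, SPAG, DRC, TEKT or ODF, except ODF1. The rule found 84 of the 20953 rows of the table, under 63 symbols. Testes of 3 yaks of 1.5 years and 3 yaks of 5 years, labelled as healthy, were each sequenced as an input library (mRNA fragments) and an m6A immunoprecipitated library (fragments bound by an antibody against N6-methyladenosine, m6A), 12 libraries in all. The comparison asked what differs in the testis before and after sexual maturation. The 1.5-year testes came from castration and the 5-year testes from euthanised animals, so age and the way of collection cannot be told apart. Age was taken from the sample titles. A further label, on developmental stage, contradicts the titles throughout (before maturity for the 5-year samples), and which of both is right could not be settled here. Directions below hold for the ages in the titles.

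The core of the tail is the axoneme, a ring of doublet microtubules around a central pair. Dynein arms on the doublets slide them past each other, and radial spokes, the central apparatus and the nexin-dynein regulatory complex turn the sliding into a beat. Sperm add outer dense fibres and a fibrous sheath around this core, and most genes of these parts are switched on in late spermatocytes and spermatids.

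The gene table has no row without a symbol, although 7289 of its rows repeat the symbol of an earlier identifier. Among the 63 symbols of the families, 15 stand on more than 1 identifier, 36 identifiers in all, although no symbol of the 63 belongs to more than 1 gene in the RefSeq gene list of yak (assembly Bosgru_T2T1.0). Identifiers rise with position along a chromosome in 82.6% of 1174 pairs of neighbouring genes with a differential peak. Of 13 symbols that repeat in the peak table, 12 keep to 1 chromosome or scaffold. Function terms also differed. Of the 58 first identifiers with GO terms, 31 have one for cilium, flagellum, dynein, axoneme, microtubule or sperm, against 0 of 17 among the later identifiers with GO terms. The 63 first identifiers are therefore described as the genes, and the 21 later ones are given by identifier, as rows whose gene is uncertain. This choice was made after the values had been seen. A symbol on a single identifier can be wrong in the same way, which the table cannot show.

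Levels are in FPKM, fragments scaled to transcript length and to the fragments mapped in the library, which allows genes of different length to be compared. A gene was tested when its mean over the 6 input libraries was at least 0.5 FPKM, which 60 of the 63 genes and 10 of the 21 later identifiers passed. Fold changes are differences of log2(FPKM + 0.1), 5 years minus 1.5 years, from limma across 12437 genes. A gene was called when its unadjusted p was under 0.05 and its fold change was at least 2 in size. The FPKM of a library summed to between 116187 and 139921. The table holds no fragment numbers, so the depth behind a single value is unknown.

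Transcripts of the flagellum families were lower at 5 years than at 1.5 years for most genes, by modest amounts. The median log2 fold change of the 60 genes was -0.48, against 0.04 over all genes tested, and 56 of the 60 lay below 0 (93.3%, against 46.5% of all genes). Of the 60 genes, 6 were called lower (10%), beside 5.25% of all genes tested, and 0 were called higher, beside 4.01%. No gene had an adjusted p under 0.05 (limma, Benjamini-Hochberg over all genes), where 4 of all genes did (0.0322%), and the smallest adjusted p among the families was 0.154. At an unadjusted p under 0.05, 14 genes lay below 0 and 0 above it, beside 10.9% and 14.2% of all genes. Over all 70 tested rows of the symbol rule, 7 were called lower and 0 higher, with a median of -0.47. Of these rows, 60 lay below 0 (85.7%), and at an unadjusted p under 0.05, 16 lay below 0 and 1 above it. The shares over all genes keep the later identifiers of every symbol. When FPKM was rescaled to an equal sum per library, the median of all genes moved to 0.17, that of the 60 genes was -0.35, 53 of the 60 lay below 0 and 4 were called lower (6.67%, against 3.91% of all genes). Calls over all genes then turned from 653 lower and 499 higher to 486 lower and 698 higher. In bulk tissue, fewer cells of a type and less RNA per cell cannot be told apart.

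The 3 libraries of 5 years differed widely from each other in these genes. The median gene lay 1.04 below the 1.5-year mean on the log2 scale in replicate 1, 0.10 below it in replicate 2 and 0.32 below it in replicate 3. Over all genes tested these medians were 0.03, 0.02 and 0.09. Replicate 1 of 5 years thus stood apart, and it held the lowest value of the 6 libraries for 56 of the 60 genes (93.3%, against 35.5% of all genes). Over all tested rows of the symbol rule it did so for 84.3%. The same order, replicate 1 below 3 below 2, was found for 45 of the 60 genes (75%, against 28.2%). The SD of the log2 values was larger at 5 years than at 1.5 years for 58 of the 60 genes (96.7%, against 73.6%). The 63 genes together held 0.573%, 0.554% and 0.566% of the FPKM sum at 1.5 years. At 5 years they held 0.300%, 0.535% and 0.456%.

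**Figure D1:**
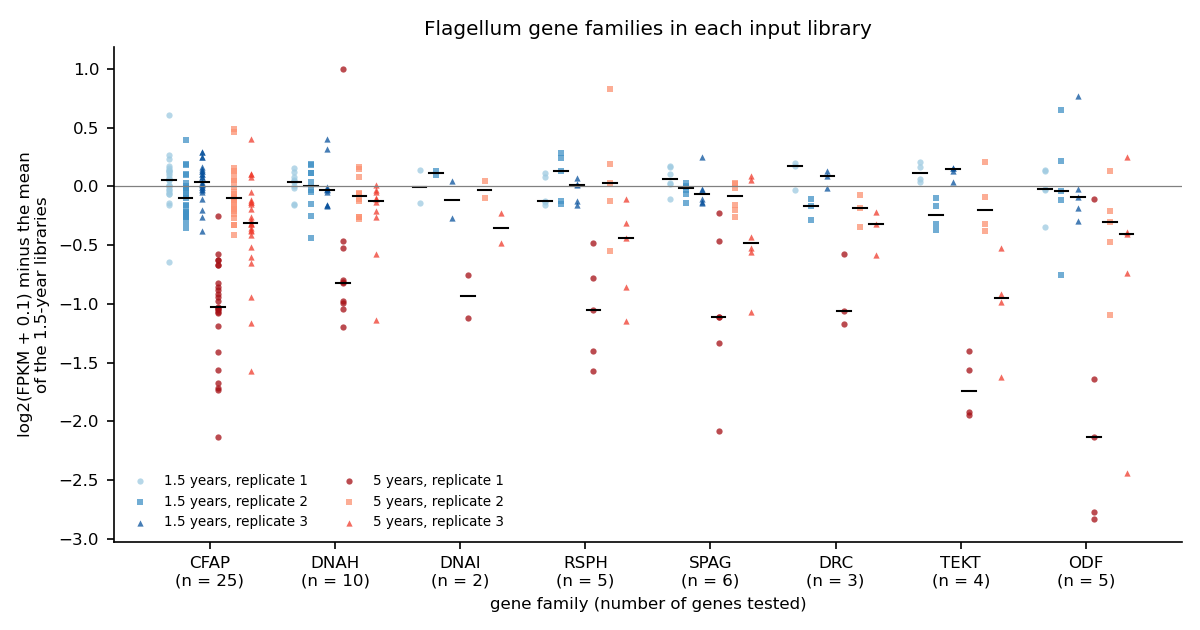
Log2(FPKM + 0.1) of each of the 60 tested genes in each of the 6 input libraries, minus the gene's mean over the 1.5-year libraries, by family; points are genes, black bars are medians per library. The median of replicate 1 of 5 years is the lowest of the 6 libraries in every family, from -0.82 in DNAH to -2.14 in ODF, and the medians of replicate 2 of 5 years run from 0.03 in RSPH to -0.31 in ODF.

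These counts depended on which libraries were used. Without replicates 1, 2 and 3 of 1.5 years in turn, 4, 4 and 3 genes were called lower (against 3.08%, 4.44% and 3.04% of all genes), and without replicate 3 of 5 years 3 were (against 4.48%). Without replicate 1 of 5 years, the median of the 60 genes was -0.20 against 0.05 for all genes, and 2 genes were called lower (ODF3 and TEKT5, 3.33% against 1.37% of all genes). Without replicate 2 of 5 years, 15 genes were called lower (25% against 8.96%), and 17 of the 60 had an adjusted p under 0.05 in limma, all of them lower, where 2526 of 12450 genes did in either direction and 9.41% were lower. The 17 genes were ODF3, TEKT1, TEKT2, TEKT5, RSPH3, RSPH14, DNAH3, DNAH7, DRC1, SPAG1, SPAG4, SPAG17, CFAP58, CFAP97D1, CFAP100, CFAP126 and CFAP221. The 5-year libraries all lay below the 1.5-year libraries for 19 of the 60 genes (31.7%, against 13.9% of all genes) and above them for 0 (19.8% of all genes). With 3 libraries against 3, an exact two-sided permutation test of 1 gene cannot go below 0.1.

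Markers of several other cell types, though not of all, moved with the same libraries. The summed level of 3 of the 8 listed elongating spermatid markers (TNP1, HMGB4 and GAPDHS, those used here) was 1102 to 1128 FPKM at 1.5 years and 254, 807 and 700 FPKM at 5 years. Of the round spermatid list, 6 of 8 markers summed to 191 to 263 FPKM at 1.5 years and to 62.2, 207 and 89.6 FPKM at 5 years. Spermatid markers were thus present in every library, those of 1.5 years included, and were lowest in replicate 1 of 5 years. TNP1, which replaces histones in elongating spermatids, was at 852 to 883 FPKM in the libraries titled 1.5 years, which the stage label places after maturity, and at 201 to 641 FPKM in those titled 5 years, which it places before. In the opposite direction, 5 of 8 Sertoli cell markers summed to 71.9 to 83.9 FPKM at 1.5 years and to 250, 104 and 130 FPKM at 5 years. The peritubular and stromal list, with 6 of 7 markers, went from between 23.8 and 26.6 FPKM to 56.9, 34.7 and 47.1 FPKM. Spermatogonia markers, 7 of 8, went from between 62.8 and 69.0 FPKM to 142, 74.2 and 87.1 FPKM. Macrophage markers, 5 of 6, went from between 7.53 and 13.8 FPKM to 35.4, 14.7 and 22.4 FPKM, although CD163 among them was called lower. Replicate 1 did not stand apart in the Leydig list (2 of 6 markers, 7.40, 8.40 and 7.87 FPKM at 5 years) or the endothelial list (5 of 5, 8.12, 8.58 and 11.6 FPKM). Spermatocyte markers kept a median log2 fold change of 0.04, with 0 of 8 called. The part of cell composition in the lower flagellum transcripts was not tested. Of the multiciliated duct list, with 6 of 8 markers, DEUP1 was at 1.85 to 6.03 FPKM and FOXJ1 at 1.52 to 4.28 FPKM. CCNO was at 0.0581 FPKM or lower in every library and MCIDAS at 0.

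**Figure D2:**
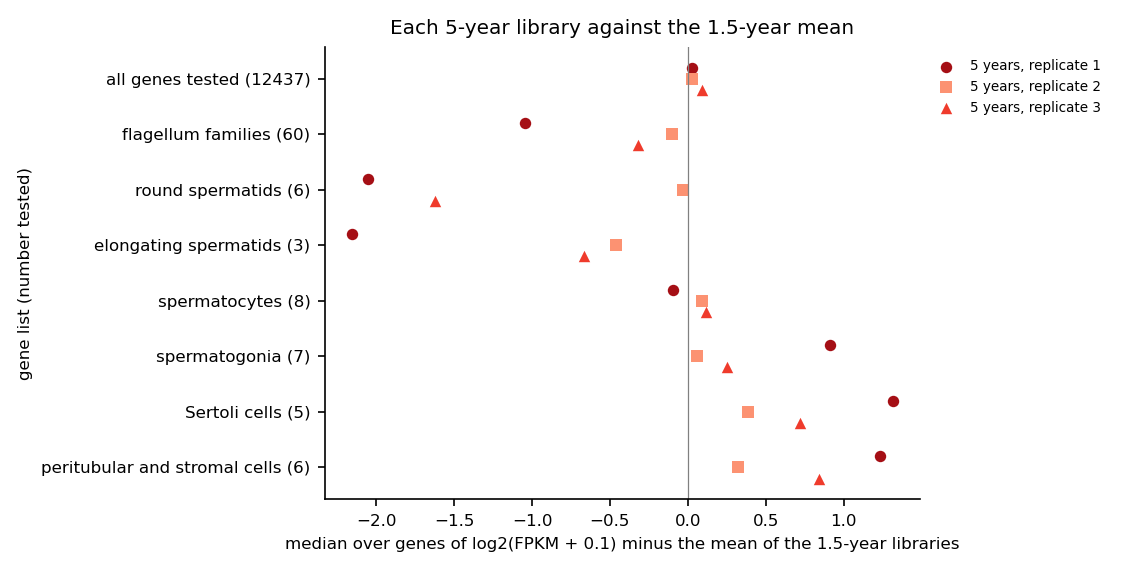
Median over the tested genes of each list of log2(FPKM + 0.1) minus the 1.5-year mean, for the 3 libraries of 5 years; the number of genes tested is beside each list. The flagellum families and both spermatid lists lie furthest left in replicate 1 of 5 years, and the Sertoli and stromal lists furthest right in that library.

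Dynein heavy chains are the motor subunits of the arms. DNAH17 and DNAH8, the outer arm heavy chains of sperm, had the highest levels of the family. DNAH17 (ENSBGRG00000017393) was at 25.5, 24.0 and 24.1 FPKM at 1.5 years and at 14.1, 23.5 and 24.1 FPKM at 5 years, in the order of the replicates. DNAH8 (ENSBGRG00000007250) was at 17.0, 18.0 and 14.9 FPKM against 8.38, 15.2 and 15.1 FPKM. For both genes only replicate 1 of 5 years lay far from the other 5 libraries, and neither fold change passed the test (-0.30 ± 0.22 and -0.41 ± 0.25, SE).

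The outer arm heavy chains known from airway cilia were far lower. DNAH9 (ENSBGRG00000018182) was at 2.25, 1.79 and 1.99 FPKM at 1.5 years and at 1.42, 2.22 and 2.01 FPKM at 5 years. The first identifier of DNAH5 (ENSBGRG00000018062) stayed between 0.211 and 0.539 FPKM and was not tested. DNAH11 (ENSBGRG00000001054) was at 2.28, 2.11 and 3.41 FPKM against 5.17, 2.87 and 2.45 FPKM. It was highest in replicate 1 of 5 years, the library in which the other 9 heavy chains tested were lowest, but the groups overlapped and its fold change of 0.37 ± 0.31 did not pass the test. A difference in response between sperm-type and cilium-type chains was not tested.

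The 6 inner arm heavy chains had fold changes from -0.75 to -0.30, with 0 called. DNAH2 (ENSBGRG00000011513) and DNAH1 (ENSBGRG00000008005) were the most abundant of them, with means over the 6 libraries of 12.7 and 10.1 FPKM. DNAH6 (ENSBGRG00000006436) had a mean of 6.30 FPKM and a fold change of -0.38 ± 0.22. DNAH7 (ENSBGRG00000001376) was at 5.84, 5.33 and 5.40 FPKM at 1.5 years and at 2.63, 5.30 and 3.66 FPKM at 5 years, and DNAH10 (ENSBGRG00000013299) at 3.47, 3.65 and 3.00 FPKM against 1.64, 2.80 and 2.78 FPKM. In both genes all 5-year libraries lay below all 1.5-year libraries, as in DNAH1, with a small gap between the nearest libraries. DNAH3 (ENSBGRG00000025929) had the lowest fold change of the heavy chains, -0.75 ± 0.38, with 1.33 and 1.39 FPKM in replicates 1 and 3 of 5 years and 3.37 FPKM in replicate 2. By mean level the order was DNAH17, DNAH8, DNAH2, DNAH1, DNAH6, DNAH7, DNAH11, DNAH10, DNAH3, DNAH9 and DNAH5. The ranges over the 6 libraries overlapped between every pair of neighbours in that order except DNAH9 and DNAH5.

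**Figure D3:**
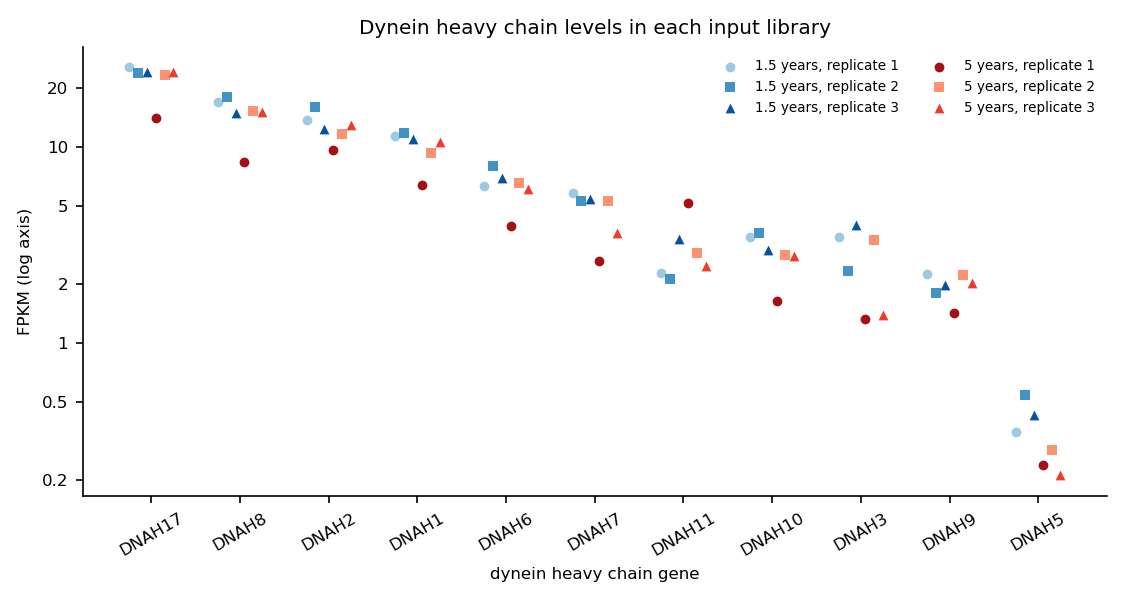
FPKM of the 11 dynein heavy chain genes in each of the 6 input libraries, on a log axis, ordered by mean level; colours and shapes mark the library. DNAH17 and DNAH8 lie highest, DNAH5 is at 0.539 FPKM or lower in all libraries, and DNAH11 is the gene whose highest value is in replicate 1 of 5 years.

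DNAI1 (ENSBGRG00000002423) and DNAI2 (ENSBGRG00000012006), the intermediate chains that tie the outer arm to the doublet, had fold changes of -0.36 ± 0.20 and -0.52 ± 0.30. Neither passed the test. DNAI1 had a mean of 6.64 ± 0.58 FPKM at 1.5 years and 5.24 ± 1.20 FPKM at 5 years (SD, n = 3), and DNAI2 had 4.98 ± 0.79 FPKM and 3.61 ± 1.44 FPKM.

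Radial spokes carry signals from the central pair to the dynein arms. All 6 spoke genes tested had fold changes below 0, from -0.84 to -0.34, and none was called. RSPH3 (ENSBGRG00000026600), a protein of the spoke stalk, was at 19.7, 16.7 and 18.4 FPKM at 1.5 years and at 6.82, 18.6 and 8.19 FPKM at 5 years. Replicates 1 and 3 of 5 years were both below the 1.5-year range and replicate 2 was within it. RSPH6A (ENSBGRG00000019805), the spoke head protein of sperm, was at 5.67, 6.93 and 6.43 FPKM against 4.49, 4.29 and 5.08 FPKM, and its replicate 1 of 5 years was not the lowest library. Its counterpart in airway cilia, RSPH4A (ENSBGRG00000005878), stayed between 0.0376 and 0.327 FPKM and was not tested. RSPH9 (ENSBGRG00000010763), also of the spoke head, had a fold change of -0.43 ± 0.27. RSPH14 (ENSBGRG00000024348) was the most scattered spoke gene, with 0.901, 5.18 and 1.54 FPKM at 5 years against 2.61, 3.53 and 2.57 FPKM at 1.5 years.

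The nexin-dynein regulatory complex links neighbouring doublets and restrains their sliding. DRC1 (ENSBGRG00000011341), its scaffold, was at 9.03, 8.57 and 10.1 FPKM at 1.5 years and at 4.36, 7.25 and 6.13 FPKM at 5 years. The groups did not overlap, and the fold change of -0.66 ± 0.21 had an unadjusted p under 0.05 without reaching 2-fold (limma adjusted p = 0.154). DRC7 (ENSBGRG00000016618) and DRC3 (ENSBGRG00000015588), linker subunits, had fold changes of -0.56 ± 0.28 and -0.29 ± 0.18, which did not pass the test.

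The 8 genes of the central apparatus, the structure around the central pair, all had fold changes below 0 (median -0.43), except that CFAP54 turned to 0.002 when FPKM was rescaled to an equal sum, and 0 were called. Those of smallest p were CFAP221 (ENSBGRG00000002795) with -0.81 ± 0.28 and SPAG17 (ENSBGRG00000011326) with -0.70 ± 0.28, both non-overlapping between the ages. CFAP54 (ENSBGRG00000005654) lay nearest to 0 with -0.12 ± 0.22. It was at 4.93, 5.44 and 4.91 FPKM at 1.5 years and at 3.37, 5.48 and 5.48 FPKM at 5 years, so that 2 of the 3 libraries of 5 years were above all of 1.5 years.

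The tektins, filament proteins that line the inside of the doublets, were among the genes with the lowest fold changes of the families. TEKT5 (ENSBGRG00000026639) was at 14.6, 10.3 and 14.5 FPKM at 1.5 years and at 3.29, 9.93 and 4.15 FPKM at 5 years. TEKT2 (ENSBGRG00000009332) was at 51.3, 45.7 and 50.4 FPKM against 12.9, 39.3 and 24.7 FPKM. In both genes every 5-year library was below every 1.5-year library, by a small margin in replicate 2, and both fell past the thresholds with log2 fold changes of -1.32 ± 0.40 and -1.08 ± 0.37 (limma adjusted p = 0.154 and 0.165). TEKT1 (ENSBGRG00000013744) had a fold change of -0.86 ± 0.35 and TEKT3 (ENSBGRG00000015371) one of -0.57 ± 0.39, with replicate 2 of 5 years inside the 1.5-year range in each. The other 5 tested genes grouped here as doublet inner proteins were CFAP20, CFAP45, CFAP52, CFAP77 and CFAP161. They had fold changes from -0.53 to 0.004, with 0 called. CFAP126, which was given no role group, had -0.87 ± 0.36 and was not called.

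ODF3 (ENSBGRG00000010911), also known as a ciliary microtubule associated protein, had the largest fall and the smallest p of the families. It was at 3.43, 2.87 and 3.06 FPKM at 1.5 years and at 0.370, 1.40 and 0.491 FPKM at 5 years. The groups were far apart, with every 5-year library below every library of 1.5 years, and the log2 fold change was -2.10 ± 0.42 (limma adjusted p = 0.154). The 5-year libraries held 11.8%, 45.0% and 15.7% of the 1.5-year mean. The tested rows whose pattern over the 6 libraries was most like ODF3 were TEKT5 (Pearson r = 0.974), CFAP100 (r = 0.957) and ENSBGRG00000005117, a later identifier under CFAP97D1 (r = 0.954), as a description over libraries that share the same animals.

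ODF2 (ENSBGRG00000010746), the main outer dense fibre protein, which also sits at centrioles, was the most abundant gene of the families. It was at 112, 99.9 and 96.1 FPKM at 1.5 years and at 32.8, 83.0 and 78.2 FPKM at 5 years. Its groups did not overlap, but the fold change of -0.78 ± 0.35 did not pass the test. ODF2L (ENSBGRG00000006729), a relative of ODF2, was at 6.99 to 9.22 FPKM and 7.37 to 9.45 FPKM at 1.5 and 5 years, with a fold change of 0.09 ± 0.17. ODF3L1 and ODF3L2 had fold changes of -1.03 ± 0.56 and -1.24 ± 0.66, neither of which passed the test.

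**Figure D4:**
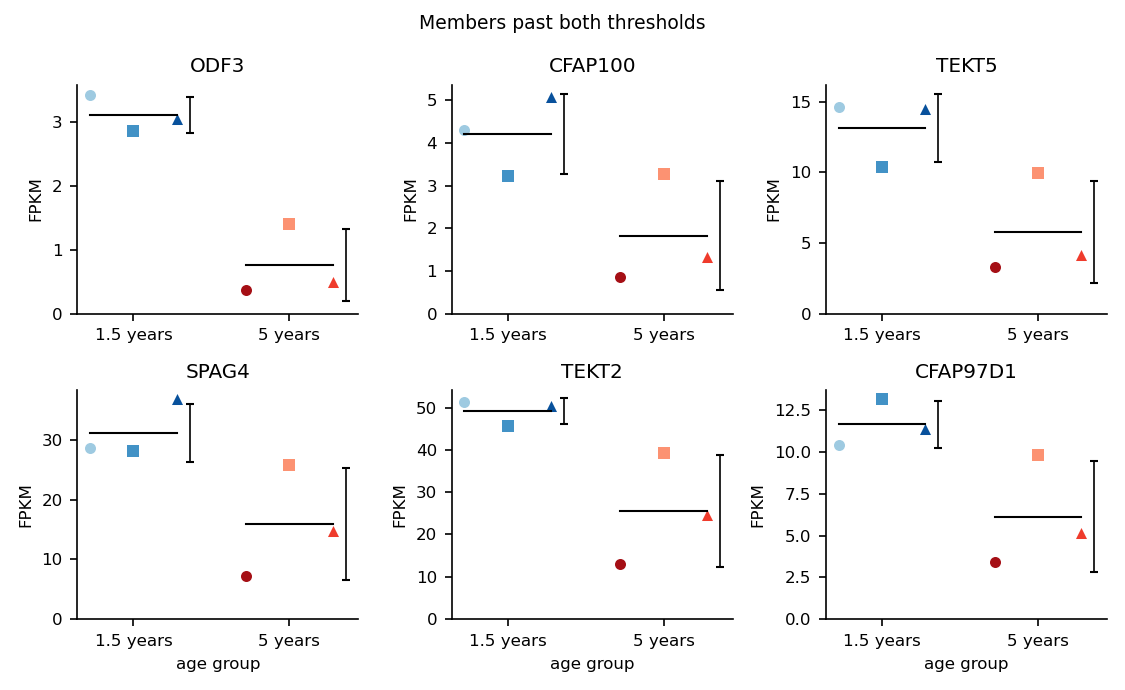
FPKM in each input library of the 6 genes called lower at 5 years; points are libraries, horizontal lines are group means and bars beside them are 1 SD (n = 3). In each gene replicate 1 of 5 years (dark red circle) is the lowest library and replicate 2 (light square) is the highest of the 5-year group.

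The remaining calls were CFAP100, CFAP97D1 and SPAG4. CFAP100 (ENSBGRG00000022740), known in algae as a regulator of inner arm dyneins, was at 4.31, 3.22 and 5.09 FPKM at 1.5 years and at 0.866, 3.28 and 1.32 FPKM at 5 years. Its groups overlapped, since replicate 2 of 5 years was above the lowest library of 1.5 years, and it fell by 1.34 ± 0.45 on the log2 scale (limma adjusted p = 0.159). CFAP97D1 (ENSBGRG00000005072), needed for a stable sperm axoneme in mice, was at 10.4, 13.2 and 11.4 FPKM against 3.42, 9.85 and 5.14 FPKM, a fold change of -1.04 ± 0.36 (limma adjusted p = 0.164). SPAG4 (ENSBGRG00000011566), a SUN domain protein of the spermatid nuclear envelope, was at 28.7, 28.2 and 36.9 FPKM against 7.26, 25.8 and 14.7 FPKM. It fell by 1.14 ± 0.42 (limma adjusted p = 0.171), with no overlap between the groups.

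Other SPAG and CFAP genes show how far the symbol families reach beyond the tail. CFAP97 (ENSBGRG00000019269) and CFAP36 (ENSBGRG00000018258) were the most abundant CFAP genes. CFAP97 was at 67.0, 68.3 and 69.0 FPKM at 1.5 years and at 29.7, 65.0 and 62.2 FPKM at 5 years, a narrow range at 1.5 years with 1 low library at 5 years. CFAP36 had a fold change of -0.45 ± 0.23. SPAG1 (ENSBGRG00000010452), which acts in the cytoplasmic assembly of dynein arms, had -0.60 ± 0.25, below 0 at an unadjusted p under 0.05. SPAG9, a signalling scaffold of many tissues, and SPAG7 had -0.14 ± 0.17 and -0.04 ± 0.16. CFAP73 (ENSBGRG00000016833) was listed at 0 in every library of 1.5 years and in 2 of 5 years, and at 0.135 FPKM in replicate 1 of 5 years.

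**Figure D5:**
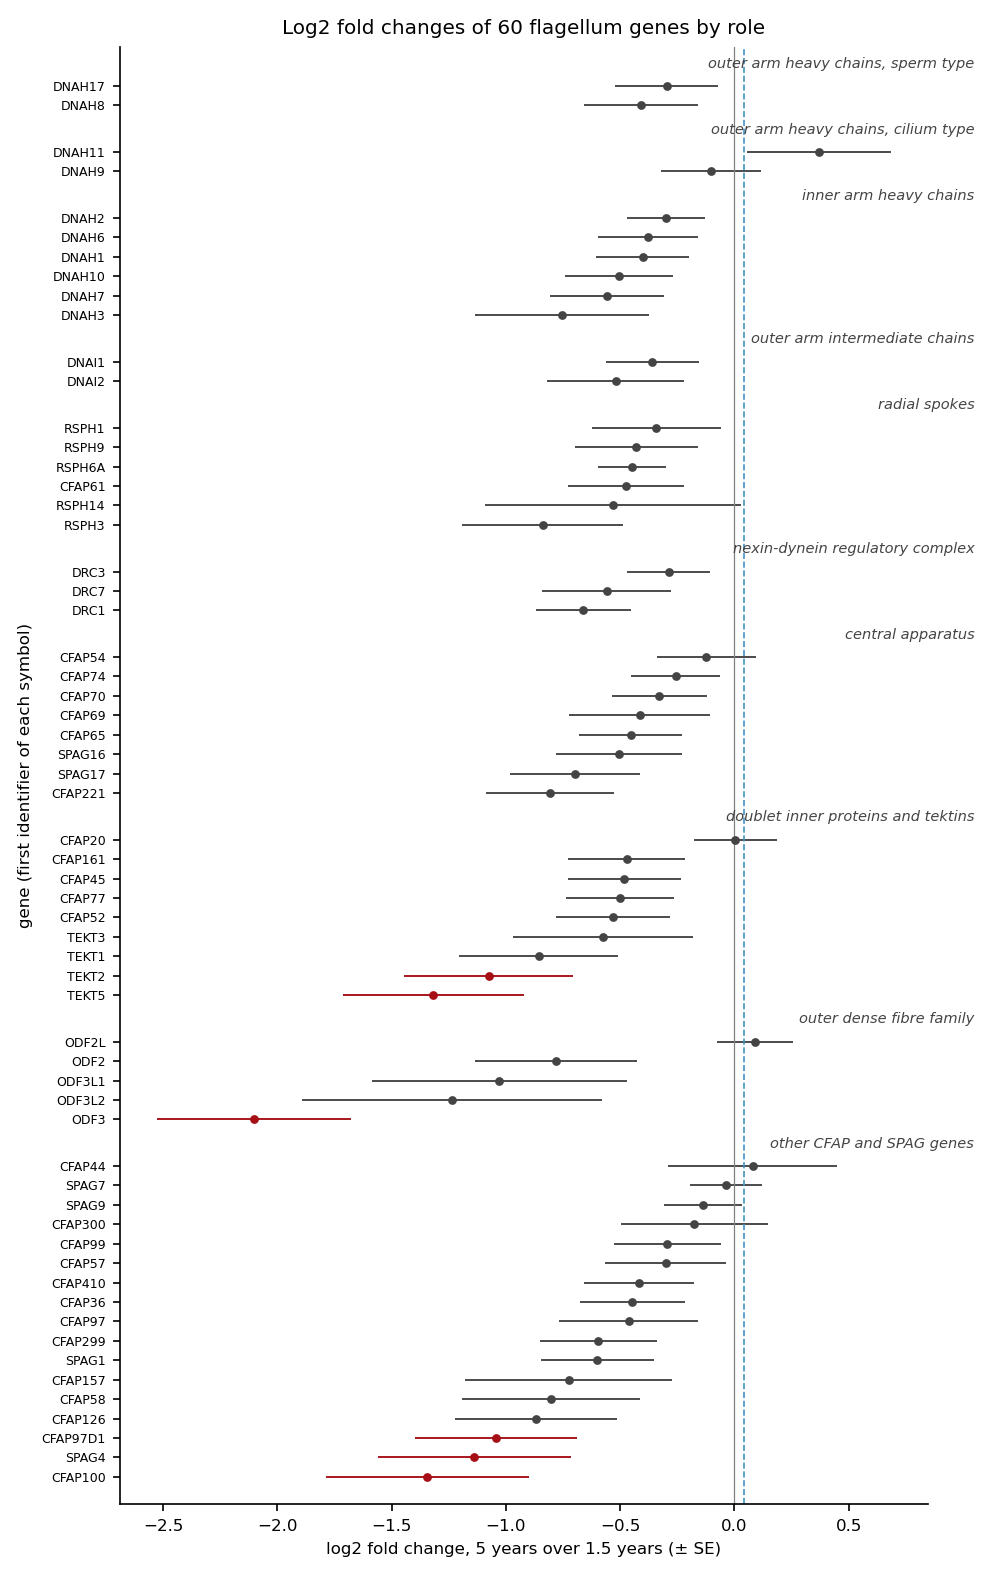
Log2 fold change, 5 years over 1.5 years, with its SE, of the 60 genes tested, grouped by role; red marks the 6 genes called lower, the grey line is 0 and the dashed line the median of all genes tested (0.04). The points of 56 genes lie left of 0, and those furthest left are ODF3, CFAP100, TEKT5 and ODF3L2.

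As a set, the later identifiers under the same symbols did not follow this pattern, although some rows did. Their 10 tested rows had a median log2 fold change of 0.11, and 4 of them lay below 0. ENSBGRG00000019222, listed as DNAH5, was at 4.28, 4.95 and 4.19 FPKM at 1.5 years and at 7.56, 5.15 and 5.79 FPKM at 5 years, the only tested row of the rule with all 5-year libraries higher. ENSBGRG00000009506, listed as TEKT2, was called lower with -1.11 ± 0.44 (limma adjusted p = 0.183), and ENSBGRG00000010705, listed as SPAG1, had 0.06 ± 0.32. ENSBGRG00000005117, listed as CFAP97D1, had -0.89 ± 0.24, with all 5-year libraries below all of 1.5 years. ENSBGRG00000007560, listed as DNAH8, was at 0.908 to 2.74 FPKM. None of these values is a value of the gene named by the symbol with any certainty. Of the 14 rows that were not tested, 11 are later identifiers and 3 are the first identifiers of DNAH5, RSPH4A and CFAP73.

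Genes linked to the flagellum outside the symbol rule were taken from prepared lists, by the first identifier of each symbol. Not all listed genes are parts of the tail, since assembly factors and transcription regulators are among them. All 8 lists had medians below 0. Over their 67 tested genes, 64 lay below 0 (95.5%, against 46.5% of all genes). Of the 67, 6 were called lower (8.96%, beside 5.25% of all genes) and 0 higher (beside 4.01%). Replicate 1 of 5 years was the lowest of the 6 libraries for 59 of the 67 (88.1%, against 35.5% of all genes). Of 10 tested genes listed under doublet inner proteins, 10 lay below 0, 1 was called lower and 0 higher (median -0.77). The call was SAXO1, a microtubule stabiliser, at 18.0 to 19.9 FPKM at 1.5 years and 4.95, 17.2 and 7.67 FPKM at 5 years. Of 17 genes listed under the manchette, the neck and intraflagellar transport, 17 lay below 0 and 3 were called lower. The calls were SPATA6, PMFBP1 and SUN5, which all act at the head-tail junction (SUN5 is also in the round spermatid list). SPATA6 was at 121, 120 and 126 FPKM at 1.5 years and at 28.1, 90.4 and 68.2 FPKM at 5 years. In the fibrous sheath list, only 2 of 10 genes were measured. AKAP3, a sheath scaffold, was called lower (-1.16 ± 0.38), and GSTM3 was not (-0.27 ± 0.18). The 6 central pair genes tested, of 9 listed, had a median of -0.65 with 0 called. The 8 docking and smaller arm chain genes tested, of 16 listed, had -0.56 with 0 called. The 9 ruler and nexin genes tested, of 10 listed, had -0.54 with 1 called, FBXL13. The 7 dynein assembly factors tested, of 12 listed, lay nearest to the median of all genes, with a median of -0.15 and 0 called. Of 8 ciliogenesis transcription factors tested, 7 lay below 0 and 0 were called. RFX1 and RFX4 had -0.85 ± 0.31 and -0.72 ± 0.26 (limma adjusted p = 0.168 for each), neither reaching 2-fold, and FOXJ1 had -0.35 ± 0.34. MYB went the other way with 0.83 ± 0.38, which did not pass the test. It was at 0.299 to 0.366 FPKM at 1.5 years and at 0.400 to 0.868 FPKM at 5 years, without overlap.

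The m6A data hold differential peaks, regions whose enrichment differed between the ages by the authors' test. Of the 63 genes, 7 carried 1 each (11.1%), beside 5.63% of all genes of the table, and among tested genes the shares were 11.7% and 9.29%. The deposited peak table holds neither a direction nor a value per animal, so no direction is given here. Coordinates are on LU_Bosgru_v3.0. The short peaks were those of RSPH9 (chr24:18287310-18287457, in exon 4 of 5), DNAH10 (chr16:57122461-57122611, exon 62 of 80) and DNAH3 (chr26:26657927-26658327, exon 54 of 63), with widths of 148, 151 and 401 bp. In DNAH10 and DNAH3 they lay 84.5% and 86.8% of the way along the gene from its 5′ end.

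The other 4 peaks were 4015 to 18225 bp wide on the genome, introns included, so the modified stretch within them is not resolved. They were in DNAH11 (chr4:97390593-97394607, exon 58 of 84), CFAP54 (chr5:44857932-44867808, exon 36 of 66), RSPH14 (chr16:79564395-79582619, exon 4 of 7) and TEKT5 (chr26:37205925-37213878, exon 1 of 8). The TEKT5 peak was the only one near a start site, 98 bp from it, and TEKT5 was the only gene of the 7 that was also called lower. Of the 7, DNAH3, DNAH10 and DNAH11 are dynein heavy chains. Differential peaks also stood on ENSBGRG00000016319, listed as CFAP99, in the 3′ UTR (chr6:3878844-3879142), and on ENSBGRG00000018948, listed as DNAH5 (chr23:22293405-22297857, exon 18 of 32). Both are later identifiers, and the gene behind either peak is uncertain.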

How the data were processed

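Input libraries of 3 yaks of each age were compared, and each sample's group came from its title. The labels number the libraries but name no animal, so p-values measure the spread between these libraries. The FPKM values and symbols were deposited by the authors, 1 value per gene and input library. The authors trimmed reads with Trimmomatic, used HISAT2 2.0.4 with the genome LU_Bosgru_v3.0 and kept reads that mapped uniquely, which can lower values of near-identical paralogs. The program that gave FPKM is not given in the sources used here. Peak coordinates were deposited by the authors from MeTDiff, with p of at most 0.05 and a fold of at least 1.5, annotated with ChIPseeker; how replicates entered is not stated. The single-age peak tables (8 rows each) hold no member and were not used.

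Genes with a mean of at least 0.5 FPKM were tested on log2(FPKM + 0.1) with limma 3.58.1 in R 4.3.3 (lmFit, eBayes with a trend), two-sided, with Benjamini-Hochberg adjustment over 12437 genes. The step was tested on simulated data, drawn for each gene independently and with the same spread at both ages. There, a log2 change of 1 was called in 47.6% of changed genes and reached an adjusted p under 0.05 in 0%. A log2 change of 2 was called in 97.9% and reached that adjusted p in 81%. Of unchanged genes, 0.854% to 0.988% were called. The simulation held no shift shared by the genes of a library. In the data, the SD was larger at 5 years for 73.6% of all genes. These rates therefore describe the simulated setting and may not hold for the data. Counts and medians of lists are descriptions. Python 3.11.15, pandas 2.3.3, numpy 2.4.6 and matplotlib 3.10.9 did the rest.

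The members and lists were chosen with earlier results of these data known. Members were named by these rules: an adjusted p under 0.05, a call, the 2 highest means per family, every tested DNAH row, a differential peak, or 0 in all libraries of 1 age only. All other members were named after their values were seen. RefSeq lists 60 of the 63 symbols (not ODF3, ODF3L1 and ODF3L2).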

Additional observations from a re-analysis of the deposited data

How the results depend on the processing

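Counts here are over the 84 rows of the symbol rule, where 7 were called lower and 0 higher, with a median log2 fold change of -0.47. Leaving out each library in turn gave 2 to 18 rows called lower, 0 to 19 rows with an adjusted p under 0.05 in limma and medians from -0.65 to -0.19; over all genes it gave 169 to 1115 lower calls, 225 to 919 higher calls and 0 to 2526 genes with an adjusted p under 0.05. The lowest count of rows called lower came without replicate 1 of 5 years and the highest without replicate 2 of 5 years. Rescaling FPKM to an equal sum per library gave 4 rows called lower, where 3.91% of all genes were. It left 13 rows with all 5-year libraries below, and the share of all genes for that count is not given here. The rescaling also moved CFAP54 to 0.0021, DNAH9 to 0.0171 and SPAG7 to 0.09. A pseudocount of 1 gave 378 lower and 123 higher calls over all genes. Genes with an adjusted p under 0.05 numbered 2 with a pseudocount of 0.01, 2 with a minimum mean of 1 FPKM, 8 with every gene above 0 and 9 without a trend in eBayes, against 4. A 1.5-fold threshold gave 15 rows called lower, and peaks of at most 1000 bp left 4 rows with a peak. The shares of all genes in these 2 settings are not given here, so neither count is a result about the rows. With no fold threshold, 22.9% of the tested rows lay below 0 at an unadjusted limma p under 0.05, against 10.9% of all genes. The cause of these shifts was not tested.

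Among genes named by rule, log2 fold changes that changed sign when a library was left out ranged from -0.24 to 0.11 for CFAP54, -0.23 to 0.0777 for DNAH9, -0.0004 to 0.20 for ODF2L, -0.0433 to 0.42 for ENSBGRG00000016319 (listed as CFAP99) and -0.26 to 0.31 for ENSBGRG00000010705 (listed as SPAG1). Others that changed sign were CFAP300 (0.17), SPAG9 (0.02) without replicate 1 of 5 years, SPAG7 (0.05) without replicate 1 of either age, and CFAP44 and CFAP20 in 4 and 3 of the 6 such fits, reaching -0.11 and -0.12; centring libraries on the median also moved CFAP20 to -0.05. In alternatives chosen after seeing the data, replicate 1 of 5 years alone against the 1.5-year mean gave a median of -1.03. Without that replicate, 2 rows had the remaining 5-year libraries above all of 1.5 years, where 23.2% of all genes did. These rows were CFAP54, a first identifier, and ENSBGRG00000019222, listed as DNAH5. With all 3 libraries of 5 years, 0 first identifiers had them above.

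Replicate numbers shared by both ages did not pair the samples: deviations of same-numbered libraries correlated at -0.02, -0.09 and 0.007. With a replicate block, 7 rows were called lower and 1 of all genes had an adjusted p under 0.05, and it changed no other count of calls by over 1.5 times. Fragment numbers are not in the table, so which low values depth limits is unknown.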
